A study of Saccharomyces cerevisiae with 15 samples.

Results

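The kinetochore and spindle checkpoint genes of budding yeast were read on 2 Agilent arrays that set RNA against genomic DNA. A list of 41 genes was chosen by name, and 37 of them matched the gene names printed in the array files. Another 3 were matched by locus tag, because the arrays carry their older names: NDC10 (YGR140W, listed as CBF2), NDC80 (YIL144W, listed as TID3) and DAD4 (YDR320C-A, listed as HSK2). These 40 genes, of 6256 on the arrays, are described here, and HSK3 (YKL138C-A), the remaining subunit of the Dam1 ring, was not analysed.

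The series compared strand-specific sequencing methods and used the arrays as a reference for expression levels. Its 15 samples include 13 sequencing libraries, which were left aside. The arrays form 1 group: total RNA of strain BY4741 grown in YPD, labelled with Cy3, hybridised together with Cy5-labelled genomic DNA that is named as BY4741 in one label and tagged as progenitor in another. BY4741 is a laboratory strain derived from S288C, haploid and of mating type a, YPD is a rich medium with glucose, and the design text calls the RNA mid-log. No treatment, mutant or time course is part of this group, so each gene is compared with the median gene and with the other members. Separate cultures are not stated for the pair of arrays, so their p-values reflect array-to-array spread that may be technical only. In a culture, fewer cells that express a gene and less RNA per cell cannot be told apart, and cells of all stages of division were read together.

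The kinetochore is the protein assembly that ties each centromere to spindle microtubules. In budding yeast its inner layer marks and binds centromeric DNA, a linker layer (the Ctf19 complex) joins it to the outer layer, and the outer layer holds the microtubule with the help of the Dam1 ring. The chromosomal passenger complex releases faulty attachments, and the spindle checkpoint delays anaphase while a kinetochore is unattached. In the inner, linker and outer layers and the Dam1 ring, many proteins work in stable complexes with fixed subunit numbers.

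Each gene had 1 probe, printed as 7 spots, and all 7 spots passed the filter for all 40 members. The relative expression of a gene is log2(RNA/DNA), the median over its spots, minus that of the median gene on the same array; it is given as the mean of both arrays ± SD (n = 2). It compares RNA with DNA at the same probe and is not a number of molecules, so order between genes is an order on this scale. A gene was called above or below the median gene at a log2 value of at least 1 in either direction and an adjusted p under 0.05 in limma, adjusted over all 6250 genes with usable DNA signal. For the median gene, RNA intensities were 1135 on array 1 and 1390 on array 2, and DNA intensities were 4184 and 4558. RNA intensities under 17.05 and 32.9, the floors set from negative control spots, were raised to them, and no member was near its floor. As a check of the strain label, the 4 genes deleted in BY4741 (HIS3, LEU2, MET17 and URA3) had RNA under the floors and DNA intensities of at most 3.56 on array 1 and 7.39 on array 2. Of 7 genes specific to a cells 5 were called above the median gene, beside 28.2% of all genes. AGA2 was not called, at -0.03, and ASG7 went the other way and was called below, at -2.82. All 4 genes specific to alpha cells were called below, beside 31.2% of all genes, 1 of them, MF(ALPHA)1, from RNA at the floor.

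RNA of every member was detected, and most members lay near the median gene. The lowest RNA intensity among them was 313, for IPL1 on array 1, and the highest was 4064, for DAD4 on array 2. By RNA intensity the members ran from percentile 20.4 to percentile 77.7 of all genes, so none was among the most abundant RNAs. Of the 40, 5 were called above the median gene (SPC105, MAD1, DAD3, DAD1 and DAD4), 9 below and 26 were not called. This is 12.5% above and 22.5% below, beside 28.2% and 31.2% of all genes tested. With the adjusted p alone, 9 members were above and 24 below, beside 47.1% and 47.2% of all genes. At a log2 threshold of 2, no member was above and 2 were below (IPL1 and IML3), beside 12.4% and 20.4% of all genes. The list median was -0.38, with -0.35 on array 1 and -0.36 on array 2. A log2 value within 1 of the median gene was found for 26 members, or 65.0%, against 40.6% of all genes, and the SD over genes was 0.94 for the members and 2.48 for all genes. From IPL1 at the bottom to SPC105 at the top the members spanned 3.81 on the log2 scale, a 14.0-fold range of RNA/DNA. With the RNA channel alone they spanned 3.33, from IPL1 at -1.89 to DAD4 at 1.44.

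**Figure D1:**
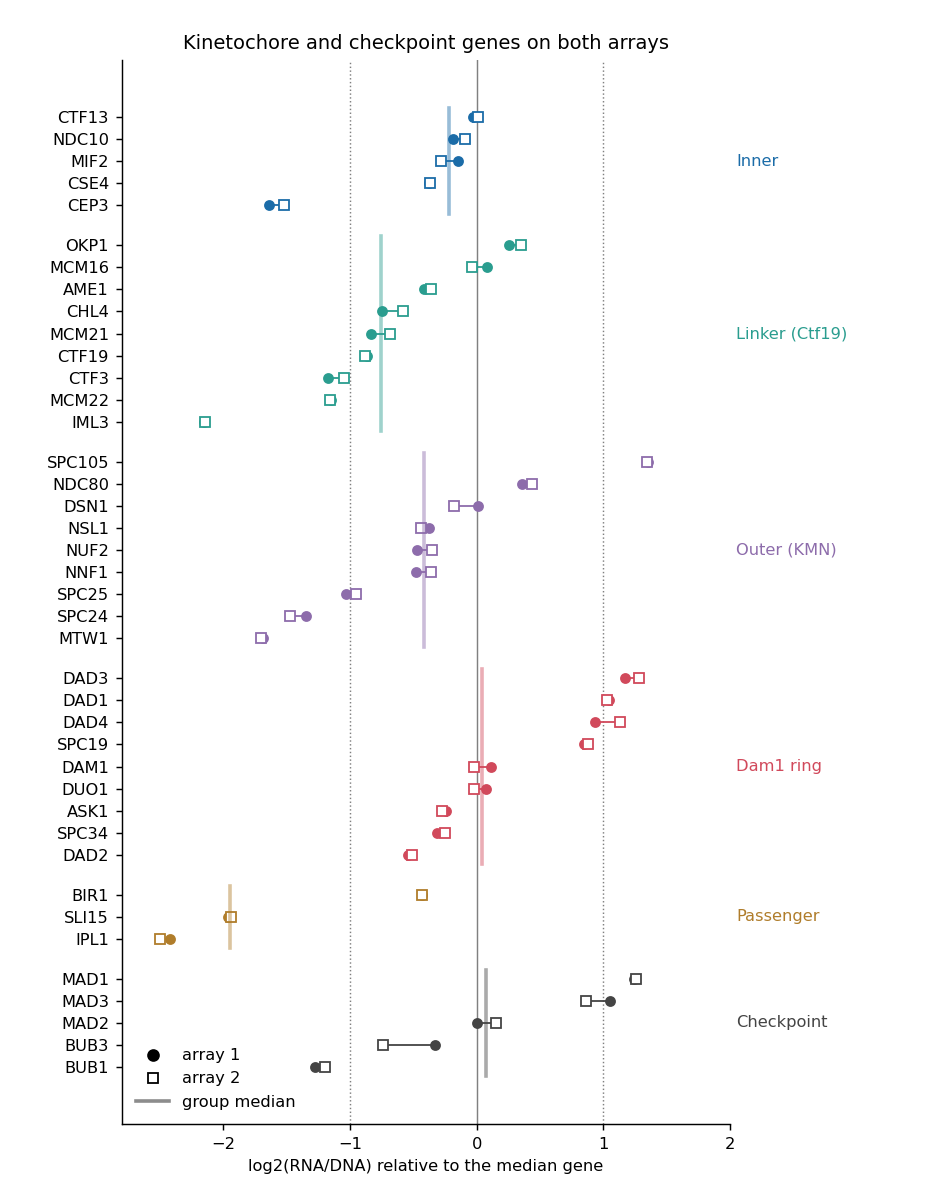
Relative expression, log2(RNA/DNA) minus that of the median gene, of the 40 kinetochore and checkpoint genes on array 1 (filled circles) and array 2 (open squares), sorted within each group; vertical bars are group medians of the 2-array means and dotted lines the threshold of 1. The passenger genes have the lowest median, -1.95, and DAD3, DAD1 and DAD4 stand at the top of the Dam1 ring between 1.03 and 1.23.

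By group, medians of relative expression were lowest for the passenger complex and highest for the checkpoint and the Dam1 ring. They were -0.21 ± 0.07 for the inner kinetochore, -0.76 ± 0.11 for the linker layer, -0.41 ± 0.08 for the outer layer, 0.04 ± 0.09 for the Dam1 ring, -1.95 ± 0.01 for the passenger complex and 0.07 ± 0.11 for the checkpoint (SD of the group median over the 2 arrays). The checkpoint and Dam1 ring medians changed places between the arrays (0.11 for the Dam1 ring and -0.00 for the checkpoint on array 1, -0.02 and 0.15 on array 2), so their order is not resolved. Both medians turned negative when genes with RNA at the floor were left out before centring, at -0.15 for the Dam1 ring and -0.12 for the checkpoint. That setting moves every value by -0.19, because it moves the median gene, and it left 3 members above and 11 below, beside 27.1% and 27.8% of all genes. The other 4 groups kept one order on both arrays, but with the RNA channel alone the inner median (-0.68) was below the outer median (-0.32), and an inner gene was higher than an outer gene in 15 of 45 pairs instead of 26. Measured by gene pairs, a Dam1 ring gene was higher than a linker gene in 72 of 81 pairs, with 71 on array 1, 72 on array 2 and 79 with the RNA channel alone. It was higher than an outer gene in 61 of 81 pairs, than an inner gene in 35 of 45 and than a passenger gene in 26 of 27, but than a checkpoint gene in only 25 of 45. Members of a group are not replicates, so these group values are descriptions and were given no test.

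By RNA/DNA the inner kinetochore genes sat just under the median gene, apart from CEP3. Taken from the RNA channel alone, the inner median was -0.68 instead of -0.21, with MIF2 at -0.68 and CTF13 at -1.61. CSE4 (YKL049C), the centromeric histone H3 variant on which the kinetochore is built, had RNA intensities of 993 and 1167 and a relative expression of -0.37 on both arrays. MIF2 (YKL089W), the yeast CENP-C, which binds the Cse4 nucleosome, had 726 and 849 and was at -0.14 and -0.28. By RNA/DNA the values of these partners did not overlap, and neither gene was called. With the RNA channel alone their order turned round, with CSE4 at -0.22 above MIF2 at -0.68.

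The CBF3 complex, which recognises a conserved element of centromeric DNA, held unequal values. CEP3 (YMR168C), its zinc-cluster DNA-binding subunit, had RNA intensities of 359 and 438 against DNA intensities of 3381 and 3614. Its relative expression of -1.58 ± 0.08 made it the one inner gene called below the median gene (limma adjusted p = 0.000172). NDC10 (YGR140W), its scaffold subunit, had RNA intensities of 1159 and 1366, the highest of the complex, and stood at -0.14 ± 0.07. CTF13 (YMR094W), the F-box subunit, had almost the same RNA as CEP3, with 362 and 468, but a relative expression of -0.01 ± 0.03. Its DNA intensities of 1304 and 1414 were the lowest of all 40 members, at percentile 0.912 of all genes. With the RNA channel alone, CTF13 was called below the median gene at -1.61, close to CEP3 at -1.66. Whether CTF13 lies near NDC10 or near CEP3 thus depends on the division by DNA.

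The linker genes made up the second lowest group, with 3 of 9 (33.3%) called below the median gene, near the 31.2% of all genes, and none above, beside 28.2%. In the COMA complex, which bridges inner and outer layers, OKP1 (YGR179C) was highest at 0.30 ± 0.06, followed by AME1 (YBR211C) at -0.39 ± 0.04, with RNA intensities of 755 and 909. These are the essential subunits of the complex in yeast. The non-essential subunits were lower, with MCM21 (YDR318W) at -0.83 and -0.68 (-0.76 ± 0.11) and CTF19 (YPL018W) at -0.87 and -0.88 (-0.87 ± 0.01), and the values of these 4 genes did not overlap between arrays. The ends of that order had opposite DNA signals: OKP1 had DNA intensities of 1775 and 2088, at percentile 3.71, and CTF19 6462 and 6014, at percentile 76.4. With the RNA channel alone the order of the ends turned round, with OKP1 lowest at -0.80 and CTF19 highest at -0.27. CTF19 was not called, but was called below at -1.07 when genes at the floor were left out.

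CTF3 (YLR381W), MCM16 (YPR046W) and MCM22 (YJR135C) form another linker subcomplex, the counterpart of the human CENP-H, CENP-I and CENP-K proteins. CTF3 had RNA intensities of 419 and 645 and was called below at -1.11 ± 0.09 (adjusted p = 0.00038). MCM22 had 355 and 423 and was called below at -1.15 ± 0.00. MCM16 stood apart from both, with RNA intensities of 774 and 907 and a relative expression of 0.08 on array 1 and -0.04 on array 2. Its distance from MCM22 was 1.18 ± 0.08, and 1.11 with the RNA channel alone.

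CHL4 (YDR254W) and IML3 (YBR107C), the yeast CENP-N and CENP-L, bind each other and contribute to cohesin loading at centromeres. IML3 had RNA intensities of 488 and 567 against DNA intensities of 7882 and 8027, the highest DNA signal of the members at percentile 88.0. It was called below at -2.15 ± 0.01 (adjusted p = 6.55e-05), the second lowest of the 40 genes. CHL4 had RNA intensities of 684 and 798, stood at -0.75 and -0.58 (-0.66 ± 0.12) and was not called. Their distance of 1.48 ± 0.11 was 0.49 with the RNA channel alone, where IML3 was called below at -1.25.

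The outer kinetochore, made of Spc105 and the Ndc80 and Mtw1 complexes (the KMN network), ran from MTW1 at the bottom to SPC105 at the top. SPC105 (YGL093W), the large scaffold (human KNL1) to which checkpoint proteins are recruited, had RNA intensities of 1167 and 1268, close to the median gene. Its DNA intensities were 1364 and 1474, at percentile 1.12 of all genes. The ratio was 1.35 on array 1 and 1.34 on array 2, the highest of all members, and was called above the median gene (1.35 ± 0.01, adjusted p = 0.000115). With the RNA channel alone the value was -0.05 and the call ended, so the high rank of SPC105 goes with its low DNA signal.

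The Ndc80 complex is the main microtubule-binding rod of the kinetochore. NDC80 (YIL144W), which holds the microtubule, had RNA intensities of 1262 and 1466 and a relative expression of 0.36 and 0.44. Its head partner NUF2 (YOL069W) was lower on both arrays, with RNA intensities of 689 and 847 and values of -0.47 and -0.35. SPC25 (YER018C) and SPC24 (YMR117C), which anchor the rod to the Mtw1 complex, were lower still by RNA/DNA, although with the RNA channel alone SPC25 at -0.32 was above NUF2 at -0.72. SPC25 had RNA intensities of 883 and 1146, stood at -1.03 and -0.95 and was not called, but was called below at -1.06 with gradient-corrected signals and at -1.19 when genes at the floor were left out. SPC24 had RNA intensities of 600.4 and 604 and was called below at -1.41 ± 0.09 (adjusted p = 0.000232). The 4 subunits did not overlap between arrays, and NDC80 exceeded SPC24 by 1.80 ± 0.15, a 3.49-fold difference. With the RNA channel alone the complex spanned 1.18, with the same genes at both ends.

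By RNA/DNA the Mtw1 complex, which connects the Ndc80 rod to the linker and inner layers, had 3 subunits close together and 1 apart. DSN1 (YIR010W) stood at -0.08 ± 0.13, NSL1 (YPL233W) at -0.41 ± 0.04 and NNF1 (YJR112W) at -0.42 ± 0.08, and none of them was called. Their RNA intensities ran from 730.3 for NSL1 to 1350 for DSN1 on array 1 and from 948 for NSL1 to 1443 for DSN1 on array 2. MTW1 (YAL034W-A) had RNA intensities of 498 and 627 and was called below at -1.69 on array 1 and -1.70 on array 2 (adjusted p = 8.4e-05). DSN1 exceeded it by 1.61 ± 0.12, and by 1.32 with the RNA channel alone. The RNA channel alone spread the subunits out, with DSN1 at 0.15, NNF1 at -0.05, NSL1 at -0.59 and MTW1 at -1.17, so the grouping of 3 depends on the division by DNA.

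**Figure D2:**
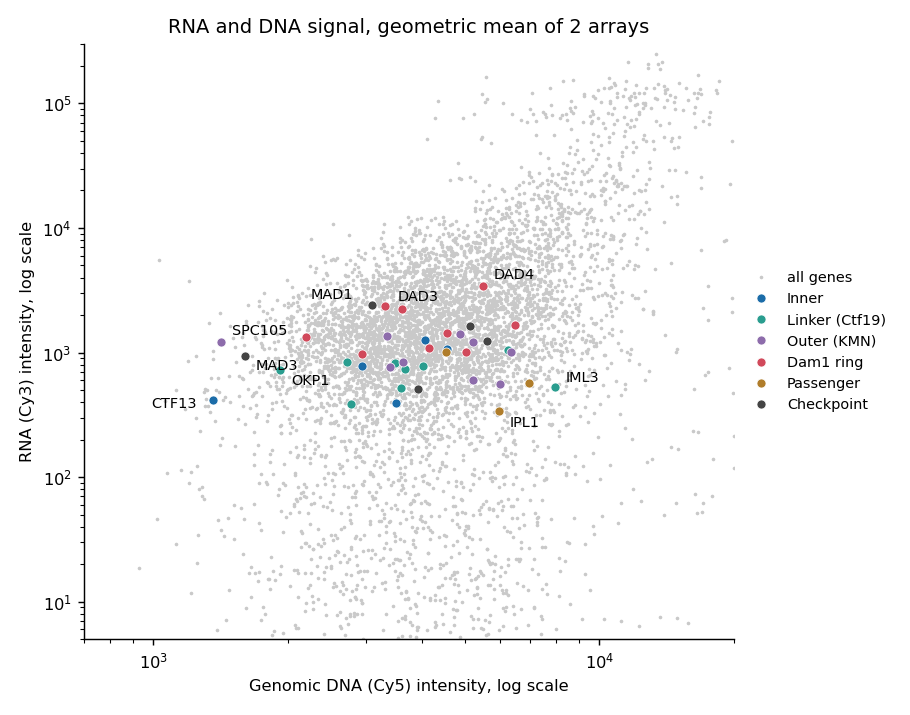
RNA intensity (Cy3) against genomic DNA intensity (Cy5) of each gene, as the geometric mean of both arrays on log axes, with intensities under 1 set to 1; grey points are all genes, coloured points the members, and 297 genes lie outside the axes. CTF13, SPC105, MAD3 and OKP1 sit at the left edge with DNA signals under percentile 5, and IML3 sits farthest to the right of the members.

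The Dam1 ring, a microtubule-encircling complex that keeps kinetochores on shortening microtubules in fungi, held 3 of the 5 genes called above the median gene and none called below. Its share above, 3 of 9 or 33.3%, was near the 28.2% of all genes. Those 3 encode small subunits of the DAD type. DAD3 (YBR233W-A) had RNA intensities of 2101 and 2640 and a relative expression of 1.17 and 1.29 (1.23 ± 0.08, adjusted p = 0.000275). DAD1 (YDR016C) had 2028 and 2486 and stood at 1.05 and 1.03 (1.04 ± 0.01, adjusted p = 0.000181). DAD4 (YDR320C-A) had 2855 and 4064, the highest RNA of any member on both arrays, and stood at 0.93 and 1.13 (1.03 ± 0.14, adjusted p = 0.001). DAD1 and DAD4 overlapped and lay close to the threshold, and DAD3 lay above both on each array. Leaving out genes at the floor ended the calls of DAD1 and DAD4, at 0.84 for each gene. With the RNA channel alone DAD4 was the only member called above, at 1.44, with DAD3 at 0.91 and DAD1 at 0.84.

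DAD2 (YKR083C), of the same size class, was at the other end of the ring at -0.53 ± 0.02, with RNA intensities of 902 and 1136. SPC19 (YDR201W), another core subunit, stood at 0.86 ± 0.02, with DNA intensities of 2222 and 2175 at percentile 6.5 of all genes, and at 0.09 with the RNA channel alone. DAM1 (YGR113W), the subunit that contacts the Ndc80 complex and is a target of the Ipl1 kinase, had RNA intensities of 1406 and 1458 and stood at 0.11 and -0.02. DUO1 (YGL061C), with 981 and 953 and values of 0.07 and -0.02, could not be told from DAM1 by RNA/DNA. With the RNA channel alone the pair came apart, with DAM1 at 0.19 and DUO1 at -0.38. The subunits ASK1 (YKL052C), at -0.24 and -0.27, and SPC34 (YKR037C), at -0.32 and -0.25, also overlapped each other by RNA/DNA. ASK1 had the higher RNA, however (1497 and 1881, against 956 and 1216 for SPC34). From DAD2 to DAD3 the 9 measured subunits spanned 1.75 ± 0.06, a 3.37-fold range, for proteins that assemble in equal numbers. With the RNA channel alone both end genes changed: the ring ran from DUO1 to DAD4 over 1.82, with DAD2 at -0.31.

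The passenger complex was the lowest group, with 2 of 3 genes called below the median gene, beside 31.2% of all genes. IPL1 (YPL209C), the Aurora B kinase that destabilises attachments without tension, had RNA intensities of 313 and 367 against DNA intensities of 5778 and 6143. At -2.42 and -2.50 it was the lowest of all 40 members (-2.46 ± 0.06, adjusted p = 7.2e-05). SLI15 (YBR156C), the yeast INCENP, which binds and activates Ipl1, had RNA intensities of 520 and 620 and stood at -1.96 and -1.94 (adjusted p = 7.2e-05). BIR1 (YJR089W), the yeast survivin homologue that targets the complex to centromeres, was not called, at -0.43 on both arrays. BIR1 exceeded IPL1 by 2.03 ± 0.06, or 4.08-fold, and by 1.58 with the RNA channel alone, where IPL1 at -1.89 and SLI15 at -1.15 were still called below.

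The checkpoint genes ran from BUB1 to MAD1 over 2.48 ± 0.05, a 5.60-fold range. This span was close to that of the whole linker layer (2.45) and wider than that of any smaller complex above. It was narrower than the span of the whole outer layer (3.04). These comparisons with whole layers hold by RNA/DNA. With the RNA channel alone the checkpoint spanned 2.25, wider than both layers. The linker layer then ran from MCM22 at -1.70 to CTF19 at -0.27, and the outer layer from MTW1 at -1.17 to DSN1 at 0.15. MAD1 (YGL086W), which carries Mad2 to unattached kinetochores, had RNA intensities of 2117 and 2747. It was called above the median gene at 1.24 and 1.26 (1.25 ± 0.01, adjusted p = 0.000129), and was not called with the RNA channel alone, at 0.94. MAD2 (YJL030W), its partner and the protein that is converted into the anaphase inhibitor, had RNA intensities of 1316 and 1999, stood at -0.00 and 0.15, or 0.07 ± 0.11, and was not called. MAD1 was higher than MAD2 on both arrays.

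MAD3 (YJL013C), the yeast BubR1, stood at 1.05 on array 1 and 0.87 on array 2, a mean of 0.96 ± 0.13 under the threshold. Its DNA intensities of 1563 and 1643 were at percentile 1.65 of all genes, and with the RNA channel alone it was at -0.42. BUB1 (YGR188C), the kinase that marks centromeric chromatin and docks other checkpoint proteins, had RNA intensities of 447 and 577 and was called below at -1.23 ± 0.06 (adjusted p = 0.000199). BUB3 (YOR026W), the adaptor of Bub1 and Mad3, was not called at -0.33 and -0.73. Its difference of 0.40 between arrays was the largest of all members, and its spots had an SD of 0.33 on array 1 and 0.15 on array 2. The median difference between arrays over all members, BUB3 included, was 0.08 in absolute value, somewhat above the 0.06 over all genes. It was under 0.1 for 24 of the 40 members.

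**Figure D3:**
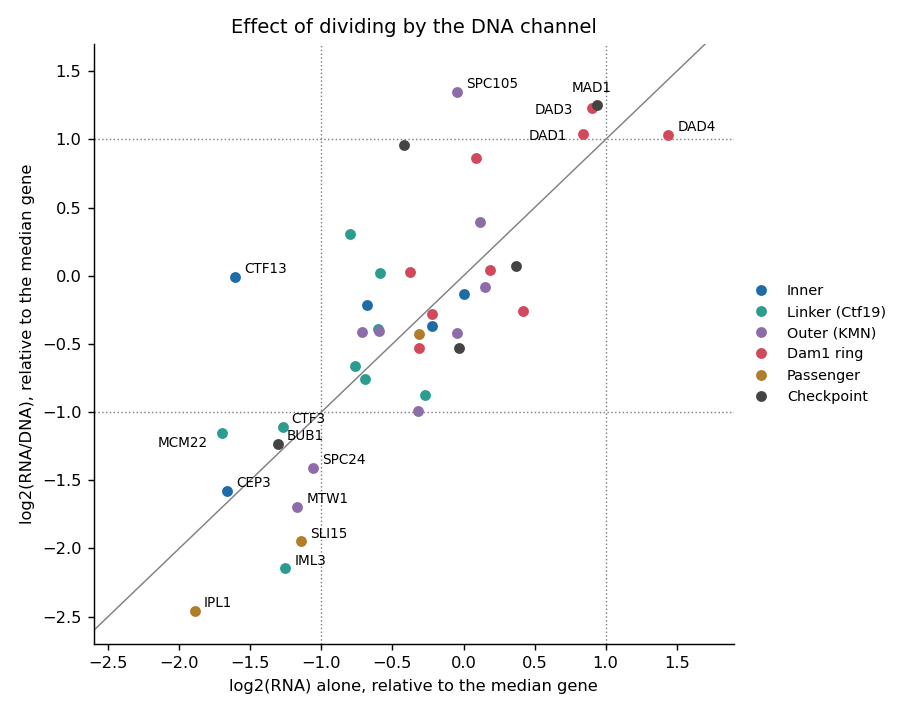
Relative expression of each member as log2(RNA/DNA) (vertical) against the same value from the RNA channel alone (horizontal), both relative to the median gene; dotted lines mark the threshold of 1 and the solid line equal values. SPC105, at 1.35 against -0.05, and CTF13, at -0.01 against -1.61, lie farthest above the line, while CEP3, CTF3, MCM22, IML3, SPC24, MTW1, IPL1, SLI15 and BUB1 are at or under -1 on both axes.

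The calls were repeated with the RNA channel alone. All 9 genes called below (CEP3, CTF3, MCM22, IML3, SPC24, MTW1, IPL1, SLI15 and BUB1) were called below there too, with CTF13 added to them, 10 in all, beside 29.9% of all genes. Of the 5 called above, only DAD4 was also called with the RNA channel alone, beside 28.9% of all genes. Pearson's r between log2 RNA and log2 DNA signal was 0.06 over the 40 members and 0.36 over all genes, a description over genes that share arrays and labelling. DNA signals of the members ran from percentile 0.912 to 88.0 with 23 of 40 under the median gene, and 4 of them (CTF13, SPC105, MAD3 and OKP1) lay under percentile 5. The part of probe sequence in these DNA signals was not tested. In the order of all 40 genes, 22 of the 39 neighbouring pairs had overlapping array values, so the middle and part of the top of the order are not resolved. Near the top, MAD1 overlapped DAD3, DAD1 overlapped DAD4, DAD4 overlapped MAD3 and MAD3 overlapped SPC19. The lowest genes (MCM22, BUB1, SPC24, CEP3, MTW1, SLI15, IML3 and IPL1) did not overlap one another. MCM22 overlapped CTF3, the next gene above it.

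Other genes of chromosome segregation, chosen with earlier results of these data known, were set beside the members. Their counts stand beside 28.2% of all genes called above and 31.2% called below. Of 12 measured genes among 15 listed for other kinetochore functions, 1 was above (8.33%), 5 below (41.7%) and 6 not called, with a median of -0.08. SLK19, of the spindle midzone and kinetochore, was above at 1.96 ± 0.09, with DNA at percentile 4.29 and 0.88 with the RNA channel alone, and SKP1, the fourth subunit of CBF3, was not called at 0.95 ± 0.01 but was called above at 2.33 with the RNA channel alone. The lowest were NKP2, of the linker layer, at -2.32 ± 0.03 and SCM3, the chaperone that deposits Cse4, at -2.11 ± 0.00. MPS1, the kinase at the head of the checkpoint, was at 0.11 ± 0.09, chosen for its role after its value was seen.

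Of 22 spindle pole, tubulin and microtubule motor genes, 2 were called above (9.09%) and 5 below (22.7%), 15 were not called, and the median was -0.23. TUB2 (beta-tubulin) at 2.21 ± 0.05 and TUB1 (alpha-tubulin) at 1.35 ± 0.04 were the highest, and NUD1 at -1.35 ± 0.02 and SPC29 at -1.17 ± 0.03, both of the spindle pole body, the lowest. NUD1, whose DNA signal was at percentile 90.7, was not called with the RNA channel alone, at -0.26, and SPC29 was called below there at -1.44. TUB1 is uncertain, since its close paralogue TUB3 could share its probe. Genes of the anaphase-promoting complex, its activators, securin and separase, the machinery that the checkpoint restrains, had 4 of 17 (23.5%) below, none above and a median of -0.58. APC2 at 0.33 ± 0.01 and PDS1 (securin) at 0.31 ± 0.05 were highest, and DOC1 at -2.24 ± 0.03 and SWM1 at -1.94 ± 0.02 lowest. APC2 had DNA at percentile 1.52 and stood at -0.998 with the RNA channel alone, where DOC1 kept its call at -2.33 and SWM1 lost it at -0.77. CDC20, the activator that the checkpoint inhibits, was at -0.31 ± 0.07, likewise named for its role after its value was seen. The 9 cohesin genes had a median of -0.06, and 2 of them (22.2%) were called above and 2 below. SMC1 at 1.14 ± 0.00 and PDS5 at 1.11 ± 0.02 were highest, and ECO1 at -1.39 ± 0.02 and RAD61 at -1.30 ± 0.02 lowest. PDS5 at 1.40 and ECO1 at -1.56 kept their calls with the RNA channel alone, and SMC1 at 0.62 and RAD61 at -0.86 lost theirs.

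Of 5 regulators that reshape kinetochores and cohesion in meiosis, 3 were called below. REC8, the meiotic cohesin subunit, had RNA intensities of 32.2 and 33.6, over the floor of 17.05 on array 1 and just over that of 32.9 on array 2. It was at -5.79 ± 0.02. RNA of SPO13 and MAM1 was at the floor on both arrays, so their ratios are at most -5.56 and at most -5.52. CSM1 at -0.94 ± 0.06 and LRS4 at -0.10 ± 0.02, which also act in the nucleolus of dividing cells, were not called. None of the 40 members came near the values of REC8, SPO13 or MAM1.

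**Figure D4:**
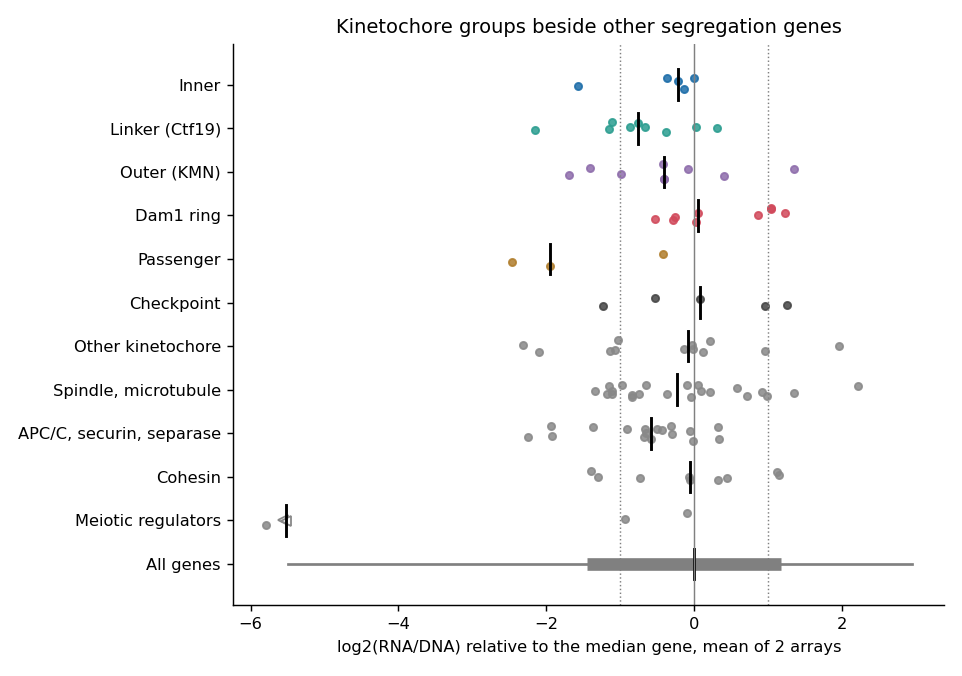
Relative expression, log2(RNA/DNA) minus that of the median gene and averaged over both arrays, of each gene in the member groups (coloured) and in the other chromosome segregation lists (grey); black bars are list medians, open triangles are upper bounds for genes with RNA at the floor, and the bottom row gives percentiles 5, 25, 75 and 95 of all genes (-5.50, -1.45, 1.17 and 2.95) around their median. Member groups lie between -2.46 and 1.35, inside the span of all genes, and 3 of the 5 meiotic regulators lie under -5.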

How the data were processed

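Per the submitters' processing notes, the authors used Agilent Feature Extraction 10.5.1.1. The deposited intensity values used here are spot means after subtraction of a fitted spatial background, per the file headers. Processed (gradient-corrected) intensities are also deposited and served as an alternative. No dye normalization is recorded and the dyes were not swapped. The genome build is not given in the sources used here, and coordinates were left out. Per the file headers, both arrays share a slide and a scan time.

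Spots entered if, on each array, the file's own tests placed DNA well above background and marked no saturation or non-uniform pixels (43721 of 43792). RNA under 3 SD of the 153 negative control spots was raised to that floor. Precision is limited by the number of arrays, 2. Genes were tested in R 4.3.3 by limma 3.58.1, as a mean against 0 with moderated variance and Benjamini-Hochberg adjustment over 6250 genes, after the test was tried on simulated data. Other values came from Python 3.11.15 with numpy 2.4.6 and pandas 2.3.3, and plots from matplotlib 3.10.9. Older gene names were matched by locus tag in RefSeq assembly R64 (5756 of 6256 array genes matched, 500 not). The members, their groups and the other lists were chosen with earlier results of these data known. All members were named, and of the other lists the 2 highest and 2 lowest measured genes. Alternatives changed the signal, background, spot summary, filter, floor, reference channel, normalization, thresholds, prior, arrays and group definitions. No probe, promoter or protein sequence was used.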

Additional observations from a re-analysis of the deposited data

How the results depend on the processing

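With the RNA channel alone, 1 member was above the median gene, and group medians were -0.68 (inner), -0.32 (outer), 0.19 (Dam1 ring), -1.15 (passenger) and -0.0328 (checkpoint). Values turned round there for ASK1 (0.42), DSN1 (0.15), DUO1 (-0.38), MAD3 (-0.42), MCM16 (-0.58), NDC10 (0.00284), OKP1 (-0.80) and SPC105 (-0.0462). Without genes at the floor, which moves the median gene, 3 members were above, and medians were -0.41 (inner), -0.95 (linker), -0.61 (outer), -0.15 (Dam1 ring), -2.14 (passenger) and -0.12 (checkpoint), with DAM1 (-0.15), DUO1 (-0.17), MAD2 (-0.12) and MCM16 (-0.17) turned round. DUO1 was -0.0527 with gradient-corrected signals, and CTF13 0.00305 with the mean over spots and 0.0159 without background subtraction. The passenger median was -1.99 and -1.90 under these last settings. At a log2 threshold of 2, 0 members were above and 2 (IML3 and IPL1) below, against 774 and 1278 of all genes. With the adjusted p alone, 9 members were above and 24 below, against 2944 and 2952 of all genes. Passenger genes counted with the checkpoint gave a median of -0.48, and the 37 genes matched by name alone, a comparison added after seeing the data, an inner median of -0.29. Apart from values that follow from a moved median gene or threshold, the cause was not tested.

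Taking each array singly, with a fold threshold and no test, 5 members were above and 9 to 10 below, and 1756 to 1763 and 1935 to 1956 of all genes. The 5 members above were not all the same genes: MAD3 (1.05) was above on array 1 only and DAD4 (1.13) on array 2 only. Group medians ran from -0.28 to -0.18 (inner), -0.83 to -0.68 (linker), -0.47 to -0.36 (outer), -0.02 to 0.11 (Dam1 ring), -1.96 to -1.94 (passenger) and -1.95e-05 to 0.15 (checkpoint). No paired analysis was possible because both arrays belong to 1 group. The planned search for promoter motifs was not run, since no sequences were used here.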

Other observations

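The genes next to the members on their chromosomes, in RefSeq gene order, covered a wider range than the members themselves. The 76 measured neighbours ran from -6.13 (SNO1, beside CTF13) to 3.55 (SND3, beside IML3), with an SD over genes of 1.88, against 0.94 for the members. Of them, 28 (36.8%) were called above and 17 (22.4%) below the median gene, beside 28.2% and 31.2% of all genes. CTF19, at -0.87, lies between VTC3 at 2.89 and IRC15 at -4.95. These pairs were singled out after their values were seen.

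The cell component printed for each probe in the array files names the kinetochore or a kinetochore microtubule for 6 of the 40 members. It names a spindle pole or spindle pole body for 12, and is unknown or not yet annotated for 16. The 4 genes of the Ndc80 complex and the 4 of the Mtw1 complex are all listed there under the spindle pole or its body.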
